A study of Mus musculus with 4 samples.

Results

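The inner mitochondrial membrane carries the respiratory chain, and its nuclear subunit genes were followed here in lung endothelial cells (ECs) after unilateral pneumonectomy (PNX). A gene was included if its symbol began with Nduf, Uqcr or Atp5, began with Cox followed by a digit from 4 to 8, or was Sdha, Sdhb, Sdhc or Sdhd. The rule found 92 of the 24063 gene symbols in the tables, and 90 of them had enough counts to be tested, among 16208 genes in all. Each symbol stands for its most counted transcript, summed over the 4 libraries, since the 92 symbols had 113 transcripts between them.

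The ECs came from C57BL6 (C57Bl6J) mice, 8 weeks old and male by their labels, and were pulled out of lung digests with magnetic beads that carry an antibody to CD31. The sham group had 2 libraries from sham-operated mice and the PNX group had 2 libraries from mice 7 days after removal of lung tissue on 1 side; no other allele or agent is labelled in either group. The cells of 2 mice were pooled in each library, so the spread between libraries is one between pools and not between single mice. The beads are a limit of the model, because they also keep other cells that carry CD31 or adhere to ECs.

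Complex I (NADH dehydrogenase, the Nduf genes) and complex II (succinate dehydrogenase, the Sdh genes) feed electrons into the chain, complex III (the Uqcr genes) passes them to cytochrome c, and complex IV (cytochrome c oxidase, the Cox genes) hands them to oxygen. Complexes I, III and IV pump protons, and complex V (ATP synthase, the Atp5 genes) uses the returning protons to make ATP. Ppargc1a encodes PGC-1α, a coactivator known for switching on these genes together with the transcription factors NRF1, ERRα and GABPA. ECs are known to draw much of their ATP from glycolysis while keeping a working respiratory chain.

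With 1 transcript per symbol, the sham libraries held 50952879 and 45261208 counts and the PNX libraries 46783725 and 41367438. At these depths 3 counts, taken as the floor, equal 0.0589 to 0.0725 CPM (counts scaled to a common total), which reflects counting error alone. The mean chi-square per gene was 1.74 between the sham libraries and 1.51 between the PNX libraries, against 128 and 114 between libraries of different groups with the same number. Counting error alone would give about 1, so libraries of a group differed little beyond it. All 44 chromosome Y symbols had 0 counts in every library and Xist had between 31872 and 33792 normalized counts, which goes against the male label in all 4 libraries alike. Of the 12 endothelial markers, 10 were called lower and 1 higher after PNX, beside 27.8% lower and 29.3% higher over all genes. Pecam1, which encodes CD31, went from 90776 and 91116 to 90191 and 90608 normalized counts. Throughout, normalized counts are counts scaled with edgeR's TMM factors to the mean library size, and called means a Benjamini-Hochberg adjusted p under 0.01 over all genes tested, in the quasi-likelihood test of edgeR. SE is a standard error.

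Promoters of the family hold letters that its regulators are known to bind. RefSeq promoter windows of 300 bases in GRCm38.p6, the build called mm10, were found for 73 of the 92 genes, each running from 250 bases before to 50 bases after a transcription start. The NRF1 motif was taken as GCGCA and GCGC with any base between them, searched on both strands. It stood in windows of 19 of the 73 genes (26.0%), against 7.17% of the 17492 protein-coding genes in the table and 5.19% of all 27025. The ETS core CCGGAAG, the kind of site GABPA binds, was found in 17 (23.3%) against 12.9% of protein-coding and 9.93% of all genes. The YY1 core AAGATGGC was found in 9 (12.3%) against 3.57% and 3.19%, and the ERR element TCAAGGTCA in 2 (2.74%) against 0.377% and 0.466%. A match is a run of letters and not a measured site. The 250 bases before the start are shown for 4 genes whose windows begin at the annotated gene start. These are 3 genes that rose and Sdha, which fell and has 3 matches to the NRF1 motif. All lie on the minus strand and are printed 5′ to 3′ in the direction of transcription, with matches in capitals.

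Sdhd (chr9:50603850-50604099): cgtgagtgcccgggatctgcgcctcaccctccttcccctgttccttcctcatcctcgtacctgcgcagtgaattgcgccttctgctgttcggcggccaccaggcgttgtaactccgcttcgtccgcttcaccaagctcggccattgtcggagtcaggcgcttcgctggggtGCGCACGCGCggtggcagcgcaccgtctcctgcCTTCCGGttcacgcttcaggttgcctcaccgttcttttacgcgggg
Atp5k (chr5:108434400-108434649): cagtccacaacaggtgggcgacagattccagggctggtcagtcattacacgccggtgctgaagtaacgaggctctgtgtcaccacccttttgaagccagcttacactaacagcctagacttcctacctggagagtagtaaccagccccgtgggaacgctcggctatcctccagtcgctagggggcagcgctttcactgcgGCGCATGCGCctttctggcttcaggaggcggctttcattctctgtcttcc
Atp5g2 (chr15:102671048-102671297): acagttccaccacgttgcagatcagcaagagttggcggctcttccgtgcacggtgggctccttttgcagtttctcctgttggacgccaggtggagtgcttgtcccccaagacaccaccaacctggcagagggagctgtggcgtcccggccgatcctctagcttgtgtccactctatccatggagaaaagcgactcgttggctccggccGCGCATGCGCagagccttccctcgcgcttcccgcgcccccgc
Sdha (chr13:74350241-74350490): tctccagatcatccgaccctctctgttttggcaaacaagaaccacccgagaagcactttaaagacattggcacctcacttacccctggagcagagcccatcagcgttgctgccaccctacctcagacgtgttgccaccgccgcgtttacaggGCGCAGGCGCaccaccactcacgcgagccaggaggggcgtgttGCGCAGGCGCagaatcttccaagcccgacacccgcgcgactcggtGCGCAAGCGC

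The NRF1 motif begins 79 bases before the start in Sdhd, 50 before in Atp5k and 42 before in Atp5g2. In Sdha its matches begin 98, 55 and 10 bases before the start. In Sdhd an ETS core read on the other strand follows 46 bases before the start, and an ERR element begins 36 bases after it. In Atp5k an ETS core begins 12 bases after the start; neither of these last matches is in the stretch printed. Among the genes with a window, the NRF1 motif was present in 14 of 52 called higher after PNX (26.9%) and in 5 of the 21 others (23.8%).

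The respiratory chain genes were slightly higher after PNX as a family. Their 92 transcripts took 0.525% and 0.528% of all counts in sham and 0.602% and 0.593% after PNX, so both PNX libraries lay above both sham libraries and the ratio of the group means was 1.13 in normalized counts. The 95% Wilson intervals of these shares were 0.00397 to 0.00468 percentage points wide, and they cover counting error only. With 2 libraries against 2 an exact two-sided permutation test cannot give a p below 0.333, so the shares are given without a test. In bulk RNA, a change in how many cells carry a transcript and a change in the RNA per cell cannot be told apart.

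Of the 90 genes tested, 64 were called higher and 3 lower (Sdha, Ndufaf4 and Cox6a2, of which Sdha and Ndufaf4 turn positive under scaling to endothelial markers), and 23 were not called. Over all 16208 genes 57.1% were called, 29.3% higher and 27.8% lower. The median log2 fold change of the 90 genes was 0.19, a rise of 14.4%, with quartiles at 0.09 and 0.26, against a median of 0.00 over all genes tested. In 73 genes both PNX libraries lay above both sham libraries, which was so for 40.8% of all genes, and in 7 both lay below, against 40.5% of all genes. The changes were small: 82 of the 90 lay within 25% of the sham level, and the range ran from -0.53 for Cox6a2 to 0.46 for Cox5a. None passed the thresholds of the study's methods (adjusted p under 0.01, change beyond 1 on the log2 scale) in edgeR or in the Wald test of DESeq2 (0 genes each), although 73 of the 90, and 68.2% of all genes tested, had an unadjusted p under 0.05 in edgeR. Those thresholds were passed by 7.56% of all genes.

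The size of the rise depended on the scale. When 12 endothelial marker genes set the scale instead of TMM, the median of all genes tested moved up by 0.28 and that of the family to 0.47, since that scaling adds the same amount to every gene. The calls then became 84 higher and 0 lower in the family, and the share of higher genes among all called went from 51.3% to 88.4%. A fall smaller than 0.28 under TMM therefore changes sign under that scaling. The plot of medians by setting shows this shift.

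**Figure D1:**
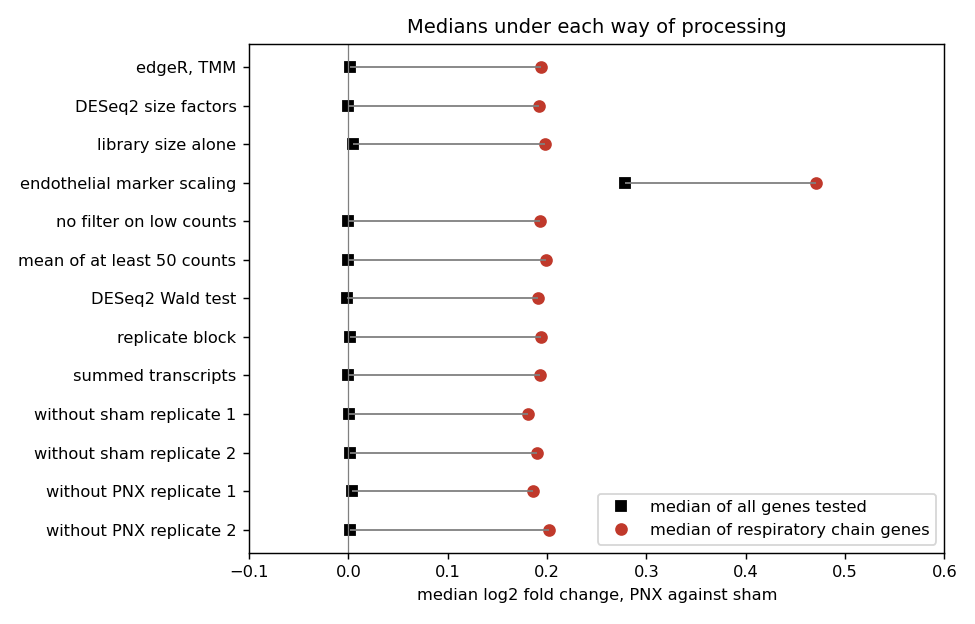
Median log2 fold change of PNX against sham (horizontal axis) under each way of processing (rows), for all genes tested (squares) and for the respiratory chain genes (circles). Under endothelial marker scaling, which adds the same amount to every gene, the square moved from 0.00 to 0.28 and the circle from 0.19 to 0.47.

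**Figure D2:**
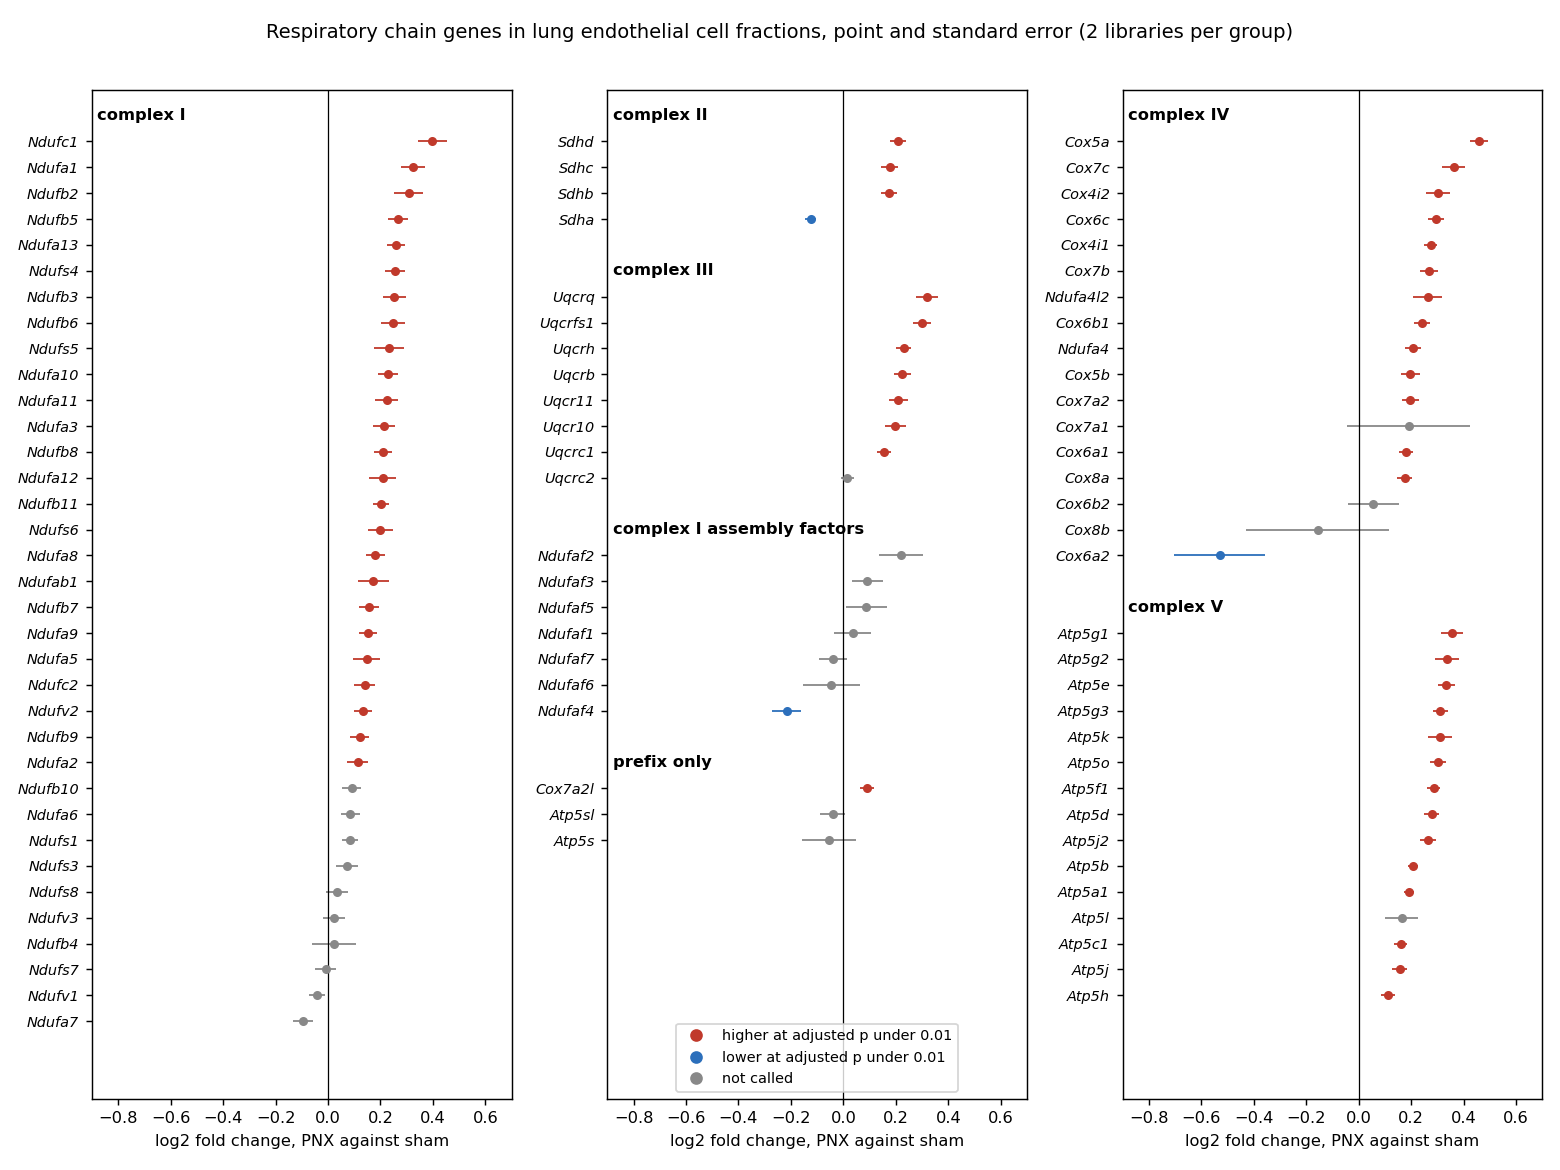
Log2 fold change of the tested respiratory chain genes (points; 1 gene is not drawn) with its standard error (SE, line), PNX against sham, 2 libraries per group, arranged by complex. Of the 90 genes tested, 64 were called higher (red) and 3 lower (blue), and of these 3 Sdha and Ndufaf4 turn positive under endothelial marker scaling.

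Complex I had 36 genes tested, 26 of them called higher and 0 lower by edgeR, with a median of 0.16. An unadjusted p under 0.05 was found for 30 of them, beside 68.2% of all genes tested. The 7 core subunits in the list, which carry the flavin and the iron-sulphur clusters, had smaller changes than the 29 accessory subunits around them: 2 core genes were called higher with a median of 0.07, and 24 accessory genes with a median of 0.20. The difference between these medians was not tested. Ndufv2, a core subunit with 2388 and 2354 normalized counts in sham and 2595 and 2608 after PNX, rose by a log2 fold change of 0.13 (SE 0.034, adjusted p = 4.89e-04). Ndufv1, the flavin-binding subunit where NADH is oxidized, had 3328 and 3538 normalized counts in sham and 3367 and 3288 after PNX, and its groups overlapped.

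Ndufc1, a small accessory subunit on chromosome 3 from 51405479 to 51408955, had 754 and 753 normalized counts in sham and 973 and 1015 after PNX. It was the largest rise in complex I, with a log2 fold change of 0.40 (SE 0.054, adjusted p = 2.86e-09). Ndufa1 and Ndufb2, also accessory subunits, followed at 0.32 and 0.31. Ndufa7 was the lowest, with 2222 and 2096 normalized counts in sham and 2069 and 1974 after PNX. Its PNX libraries lay below its sham libraries, but its log2 fold change of -0.09 was not called (adjusted p = 0.0243). Ndufa7 was called lower with sham replicate 2 left out (-0.13, adjusted p = 0.00612) and higher under endothelial marker scaling (0.18, adjusted p = 2.16e-04). By length-scaled level (FPKM), Ndufa3 was the most abundant, at 58.8 ± 3.34 (SD, n = 2) FPKM in sham and 68.7 ± 1.69 (SD, n = 2) after PNX.

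Complex II did not move as a unit. Sdhb, Sdhc and Sdhd, which encode the iron-sulphur subunit and both membrane anchors, were higher after PNX, with log2 fold changes of 0.18, 0.18 and 0.21. Sdhd had 3258 and 3251 normalized counts in sham and 3823 and 3684 after PNX (SE 0.030, adjusted p = 1.89e-08). Sdha, which encodes the flavoprotein that oxidizes succinate and lies on chromosome 13 from 74322255 to 74350240, was lower.

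Sdha had 10174 and 10206 normalized counts in sham and 9281 and 9406 after PNX. The groups did not overlap, and Sdha had a log2 fold change of -0.13 (SE 0.022, adjusted p = 9.28e-07) under TMM. Under endothelial marker scaling Sdha stood at 0.15, below the 0.28 of the median gene, while Sdhd stood at 0.48. By FPKM Sdha was the most abundant of the 4 in sham, at 48.4 ± 0.124 (SD, n = 2), and 44.7 ± 0.344 (SD, n = 2) after PNX. Summed, complex II took 0.0424% and 0.0421% of the counts in sham and 0.0433% in each PNX library, and the ratio of its normalized counts was 1.02.

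Complex III had 8 genes, 7 called higher and 0 lower by edgeR, and its median was 0.22. An unadjusted p under 0.05 was found for 7 of them, beside 68.2% of all genes tested. Uqcrq, a small subunit, had 1449 and 1465 normalized counts in sham and 1770 and 1864 after PNX, the largest rise of the complex at 0.32 (SE 0.041, adjusted p = 8.24e-10). Uqcrfs1, the Rieske iron-sulphur protein, rose by 0.30. The core proteins differed, since Uqcrc1 rose by 0.16 while Uqcrc2 had 5271 and 5247 normalized counts in sham and 5416 and 5208 after PNX, with overlapping groups and a log2 fold change of 0.02 (SE 0.026, adjusted p = 0.624), which became 0.29 and a call under endothelial marker scaling, beside 0.28 for the median gene. Uqcrh, the hinge protein, was the most abundant at 92.2 ± 2.22 (SD, n = 2) FPKM in sham and 109 ± 1.44 (SD, n = 2) after PNX.

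The summed level had its highest ratio in complex IV, which went from 0.0860% and 0.0863% of the counts in sham to 0.104% and 0.101% after PNX, with a ratio of 1.19 in normalized counts. All 11 subunits found in most tissues were called higher, with a median of 0.24 and a range from 0.18 for Cox8a to 0.46 for Cox5a. Ndufa4 was counted among them, since its product, named for complex I, is now placed in complex IV.

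Cox5a, a matrix-side subunit on chromosome 9 from 57517328 to 57532427, had 2140 and 2150 normalized counts in sham and 3013 and 2879 after PNX. This was the largest rise of the family, a log2 fold change of 0.46 (SE 0.034, adjusted p = 1.76e-18) or 37.5%. In complex IV, Cox7c followed at 0.36, and Cox4i1, the regulatory subunit and the most abundant Cox transcript, rose by 0.27 from 144 ± 2.88 (SD, n = 2) to 175 ± 5.67 (SD, n = 2) FPKM. The PNX libraries of Cox5a lay above the sham libraries by far more than the libraries of a group differed.

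The 8 isoforms of complex IV found in few tissues behaved differently from one another. Cox7b2 had 0, 2, 0 and 1 counts in the 4 libraries and Cox8c had 0 in all 4, so neither was tested. Cox4i2, the isoform known from lung, had 1137 and 1268 normalized counts in sham and 1509 and 1446 after PNX, a log2 fold change of 0.30 (SE 0.047, adjusted p = 8.50e-08). Ndufa4l2, a hypoxia-inducible relative of Ndufa4, had 763 and 750 in sham and 901 and 916 after PNX, a log2 fold change of 0.26 (SE 0.055, adjusted p = 3.06e-05) that DESeq2 did not call (adjusted p = 0.0111). Both are also known from pericytes, and 7 of 8 pericyte markers were called higher, against 29.3% of all genes. The summed normalized counts of these markers were 12877 to 12899 in sham and 17484 to 17558 after PNX. The part of pericytes in the result was not tested.

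Cox6a2, the heart and skeletal muscle isoform on chromosome 7 from 128205435 to 128206366, had 93.3 and 93.8 normalized counts in sham and 66.8 and 62.4 after PNX. The groups did not overlap, and its log2 fold change was -0.53 (SE 0.173, adjusted p = 0.00606). This call was the least firm of the 3 falls: it was lost with any library left out (adjusted p from 0.0212 to 0.0527), in DESeq2 (0.130), with counts summed over transcripts (0.0131) and under endothelial marker scaling (-0.25, adjusted p = 0.175). Cox6a2 also overlaps another coding gene, and the strand setting of the counting is not given in the sources used here. Of 12 striated and cardiac muscle markers 9 were tested, 3 called higher and 2 lower, beside 29.3% higher and 27.8% lower over all genes. The summed normalized counts of these markers were 966 to 1040 in sham and 1004 to 1026 after PNX. Ckmt2 was under the floor of 3 counts in every library. The part of muscle cells in the fall was not tested. The other muscle isoforms, Cox7a1 and Cox8b, had log2 fold changes of 0.19 and -0.16, neither called, and Cox6b2, a testis isoform, stood at 0.06 (0.33 and called under endothelial marker scaling).

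Ratios within a library need no scaling between libraries. The log2 ratio of Cox6a2 to Cox6a1 counts was -5.54 and -5.55 in sham and -6.23 and -6.29 after PNX, so the muscle isoform went down by 0.71 against its common partner. By FPKM Cox6a2 was 1.73% and 1.72% of Cox6a1 in sham and 1.08% and 1.03% after PNX. In 4 other pairs of complex IV genes the ratio shifted by 0.03 for Cox4i2 to Cox4i1, -0.01 for Cox7a1 to Cox7a2, 0.06 for Ndufa4l2 to Ndufa4 and -0.17 for Cox6b2 to Cox6b1, whose sham libraries alone differed from -3.68 to -3.98. Cox8b to Cox8a went from -6.81 and -6.96 to -7.12 and -7.33, a shift of -0.34 with no overlap, on 24 to 37 counts of Cox8b per library. Cox4i2, at 14.5% and 16.7% of the FPKM of Cox4i1 in sham, was the most abundant of these isoforms and kept its place at 15.9% in both PNX libraries.

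**Figure D3:**
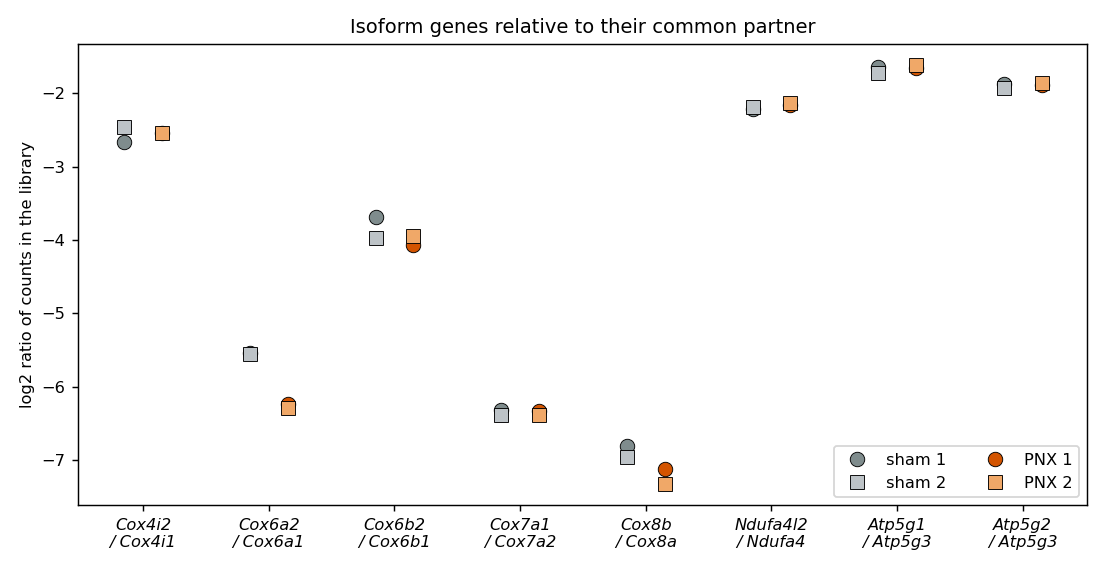
Log2 ratio of the counts of an isoform gene to those of its common partner (vertical axis) in each library (markers), for 8 pairs. Cox6a2 against Cox6a1 went from -5.54 and -5.55 in sham to -6.23 and -6.29 after PNX, while the 3 genes of the ATP synthase c subunit shifted by at most 0.05.

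Complex V had the highest median, 0.28, with 14 of 15 genes called higher and 0 lower by edgeR. All 15 had an unadjusted p under 0.05, beside 68.2% of all genes tested. All 5 genes of the F1 part, which holds the catalytic sites, were higher with a median of 0.21, and 9 of 10 genes of the Fo part and stalk with a median of 0.29. In all 15 genes both PNX libraries lay above both sham libraries. The complex took 0.184% and 0.185% of the counts in sham and 0.217% and 0.214% after PNX, and the ratio of its normalized counts was 1.16.

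Atp5b, the catalytic β subunit on chromosome 10 from 128083307 to 128090388, was the most abundant gene of the whole family. It had 25436 and 25698 normalized counts in sham and 29961 and 28994 after PNX, a log2 fold change of 0.21 (SE 0.018, adjusted p = 3.06e-15). In FPKM this was 185 ± 1.40 (SD, n = 2) in sham and 214 ± 5.35 (SD, n = 2) after PNX. The PNX libraries were thus about 15.3% above sham, with no overlap.

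The c subunit, which forms the ring that turns in the membrane, is encoded by 3 genes that give the same mature protein. All 3 rose, Atp5g1 by 0.36 (SE 0.043), Atp5g2 by 0.34 (SE 0.046) and Atp5g3 by 0.31 (SE 0.028). Atp5g1, the largest rise of the complex, had 1271 and 1268 normalized counts in sham and 1605 and 1646 after PNX (adjusted p = 1.02e-10). Atp5g3 supplied most of this transcript pool, at 81.6 ± 3.59 (SD, n = 2) FPKM in sham against 21.6 ± 0.0270 (SD, n = 2) for Atp5g1 and 22.9 ± 0.340 (SD, n = 2) for Atp5g2. The log2 ratios of Atp5g1 and Atp5g2 to Atp5g3 shifted by 0.05 and 0.03, within the range of the libraries.

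Atp5h, subunit d of the stalk, was the lowest of the complex at 0.11 (SE 0.027, adjusted p = 3.53e-04), with 4491 and 4523 normalized counts in sham and 4791 and 4940 after PNX, and its call was lost in DESeq2 (adjusted p = 0.0220) and without PNX replicate 2 (0.0232). Atp5l, subunit g, was the gene not called, with 625 and 626 normalized counts in sham and 677 and 726 after PNX (log2 fold change 0.16, SE 0.062, adjusted p = 0.0175). It also had the lowest FPKM of the complex, 16.6 in sham, and 9 other annotated genes hold a near-identical copy of its transcript.

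**Figure D4:**
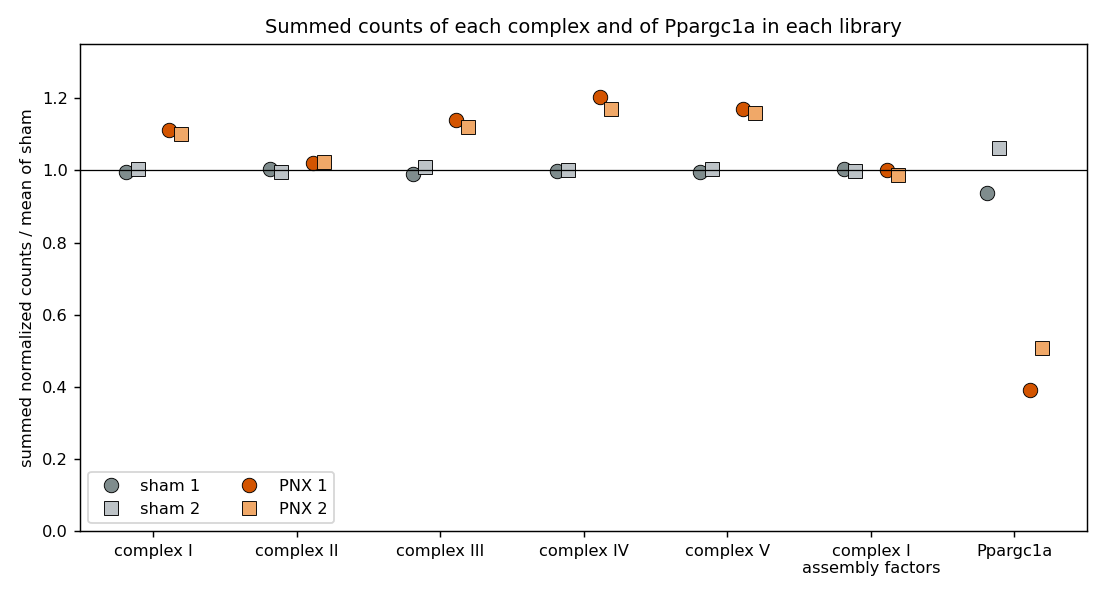
Summed normalized counts of each complex, of the complex I assembly factors and of Ppargc1a in each library, divided by the mean of the sham libraries (vertical axis). Complexes I, III, IV and V lie above 1 in both PNX libraries, up to 1.20 and 1.17 for complex IV, complex II lies at 1.02 in both, the assembly factors near 1, and Ppargc1a is far below 1.

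The complex I assembly factors, which build the complex but do not stay in it, stood near their sham level as a group. Of 7, 0 were called higher and 1 lower by edgeR, and their median was 0.03. Of these, 2 had an unadjusted p under 0.05, beside 68.2% of all genes tested. Ndufaf4 had 954 and 906 normalized counts in sham and 802 and 801 after PNX, a log2 fold change of -0.22 (SE 0.054, adjusted p = 4.19e-04) under TMM that became 0.061 under endothelial marker scaling and was not called in DESeq2 (adjusted p = 0.0361) or without sham replicate 1 (0.0194). Ndufaf2 had 309 and 335 in sham and 375 and 373 after PNX, a log2 fold change of 0.22 (SE 0.084, adjusted p = 0.0191) that was not called. Ndufaf3, at 9.07 FPKM in sham, was the most abundant of them and had a log2 fold change of 0.09, also not called. The assembly factors together took 0.00854% and 0.00850% of the counts in sham and 0.00855% and 0.00843% after PNX.

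Another 9 assembly factors of complex I that the rule does not take gave 2 higher and 1 lower, with a median of 0.06; Nubpl, which inserts iron-sulphur clusters, was highest at 0.36 and Ecsit lowest at -0.23. Of 33 assembly factors of complexes II to V, 7 were higher and 2 lower, with a median of 0.04, between Cox10, a heme synthesis enzyme, at -0.23 and Pet100 at 0.33. Over all genes 29.3% were called higher and 27.8% lower. The falls of Ecsit and Cox10 were smaller than the 0.28 by which endothelial marker scaling shifts all genes.

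The remaining 3 genes fit the rule by prefix and were not placed among the subunits or the assembly factors here. Cox7a2l, known for joining complexes into supercomplexes, had 4773 and 4686 normalized counts in sham and 5077 and 4996 after PNX, a log2 fold change of 0.09 (SE 0.027, adjusted p = 0.00243) that DESeq2 did not call (adjusted p = 0.0611), nor did edgeR without sham replicate 2 (0.0257) or PNX replicate 1 (0.0447). Atp5sl and Atp5s, listed by RefSeq as Dmac2 and Dmac2l, stood at -0.04 and -0.06, neither called.

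**Figure D5:**
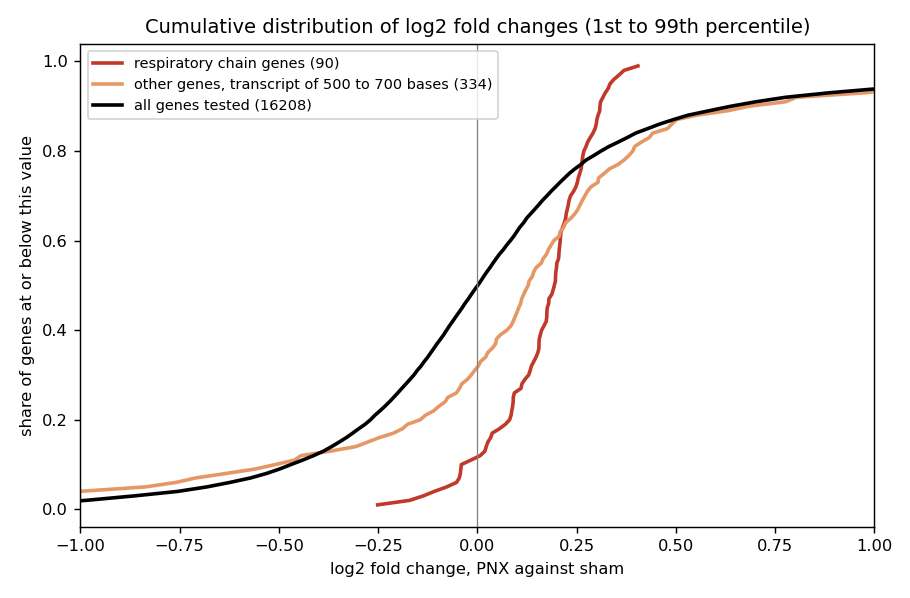
Cumulative share of genes (vertical axis) at or below each log2 fold change of PNX against sham (horizontal axis, from -1 to 1) for the 90 respiratory chain genes, 334 other genes with a transcript of 500 to 700 bases, and all 16208 genes tested, each drawn without its extreme ends (which leaves out Cox6a2 and Cox5a). The curve of the family is steep and lies between about -0.25 and 0.40, with its median at 0.19, against 0.13 for the other short transcripts and 0.00 for all genes.

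Respiratory chain transcripts are short and abundant, with a median of 692 bases against 2721 for all genes tested and a median of 1944 normalized counts in sham against 972. Among other short transcripts, higher calls outnumbered lower ones: of the 334 genes with 500 to 700 bases that are no members, 129 were higher and 31 lower, with a median of 0.13. The 30 respiratory chain genes of that length had 23 higher and 1 lower and a median of 0.20. The 15 under 500 bases had a median of 0.26 and the 45 over 700 bases one of 0.16. Over all genes tested, the 467 under 500 bases had a median of 0.03, and those over 700 bases one of -0.003. The 467 were shorter than the 15, with a median length of 96 against 441 bases. Across the 90 genes Spearman's rho between log2 fold change and transcript length was -0.37. The rho with the normalized level over both groups was 0.16. Both values describe genes that share the same 4 libraries. The part of transcript length in the rise was not tested.

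Near-identical copies can share reads with a gene. They were sought among the annotated transcripts of other genes, so copies outside the annotation were not seen. A copy of at least 95% identity over at least 50% of the transcript was found for 13 of 91 transcripts searched. Of these 13 genes 11 were higher with a median of 0.21, and of the other 77 tested 53 were higher and 3 lower with a median of 0.18. The genes lie on 19 chromosomes with at most 10 on any, and 30 overlap another annotated gene.

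Ppargc1a, on chromosome 5 from 51454249 to 52115853, moved the other way. It had 146 and 165 normalized counts in sham and 60.9 and 79.1 after PNX, with no overlap. Its log2 fold change was -1.16 (SE 0.155, adjusted p = 1.87e-09), which passes the thresholds of the study's methods, as 1.66% of all genes did in that direction. Under endothelial marker scaling it was -0.88, and without PNX replicate 1 it was -0.97, both still called at an adjusted p under 0.01 but short of a log2 fold change of -1. Its level was low, 0.327 FPKM in sham and 0.148 after PNX. Its relatives in the same coactivator family were not called: Ppargc1b had 101 and 111 normalized counts in sham and 130 and 138 after PNX (log2 fold change 0.33, adjusted p = 0.0337, not called), and Pprc1 stood at 0.02.

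Of the 15 regulators looked at, 3 were higher and 5 lower, with a median of -0.04, against 29.3% higher and 27.8% lower over all genes. The other 4 lower genes were Esrrg at -0.90, an orphan receptor with 83.3 and 80.5 normalized counts in sham and 35.4 and 53.5 after PNX, Nrf1 at -0.18, Yy1 at -0.12 and Gabpa at -0.11; the falls of Nrf1, Yy1 and Gabpa were smaller than the shift of 0.28 under endothelial marker scaling. Nrf1, whose product binds the NRF1 motif shown above, had 1609 and 1633 normalized counts in sham and 1403 and 1462 after PNX. Esrra, which encodes ERRα, had 1175 and 1172 in sham and 1272 and 1212 after PNX and was not called (0.08, adjusted p = 0.113). Tfam, the packaging and transcription factor of mitochondrial DNA, was at -0.04 with overlapping groups, Tfb2m at -0.01, Nfe2l2 at -0.04 and Ppara at -0.25, none called.

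The 3 higher regulators were Myc (0.47), Hif1a (0.42) and Ppard (0.17). Myc, a growth regulator known to act on ribosome and mitochondrial genes, had 1166 and 1224 normalized counts in sham and 1640 and 1680 after PNX. Hif1a, which encodes the oxygen-sensitive subunit of HIF-1, had 4952 and 4659 in sham and 6358 and 6543 after PNX. The groups did not overlap in either gene.

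Other mitochondrial lists were counted in the same fit, in which 29.3% of all genes were called higher and 27.8% lower. Of 17 cytochrome c and electron carrier genes 7 were higher and 3 lower, with a median of 0.06. Cycs, which encodes the cytochrome c that carries electrons from complex III to complex IV, was the highest, with 1437 and 1381 normalized counts in sham and 1887 and 1930 after PNX (0.44, SE 0.041), and Adck3, an enzyme of ubiquinone synthesis, the lowest at -0.29. Of 17 citric acid cycle and pyruvate dehydrogenase genes 8 were higher and 0 lower by edgeR, with a median of 0.05, from Suclg2 at -0.09, not called, to Mdh2, malate dehydrogenase, at 0.23. Of 15 fatty acid oxidation genes 6 were higher and 1 lower with a median of 0.07, between Eci1 at -0.22 and Acadl at 0.35.

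Of the 77 genes of the mitochondrial ribosome 35 were higher and 1 lower, with a median of 0.15, from Mrps25 at -0.12 to Mrpl51 at 0.55. Of 24 import genes 12 were higher and 0 lower by edgeR, with a median of 0.19. The unadjusted p was under 0.05 for 18 of them, beside 68.2% of all genes tested. Tomm34 stood lowest at -0.10 and Tomm20l highest at 0.83, on at most 29.0 normalized counts, and neither was called. The cytosolic ribosomal proteins, short and abundant as well, had 65 of 76 higher and 1 lower with a median of 0.14, from Rps27 at -0.19 to Rps2 at 0.44. Genes that copy and express mitochondrial DNA gave 3 higher and 2 lower of 14, with a median of -0.02, from Polrmt at -0.21 to Tufm at 0.25.

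Of 9 carrier and uncoupling genes tested, 7 were higher and 1 lower. The ADP/ATP carriers Slc25a4 and Slc25a5, the phosphate carrier Slc25a3 and the porins Vdac1, Vdac2 and Vdac3 rose by 0.22 to 0.41, Ucp2 had a log2 fold change of 0.00, and Ucp3 was lowest at -0.31. Ucp1, the uncoupling protein of brown fat, had 0.906 and 2.04 normalized counts in sham, at or under the floor of 3 counts per library, and 45.2 and 51.3 after PNX. Of 8 antioxidant genes 3 were higher and 0 lower by edgeR, from Glrx2 at -0.10 to Prdx5 at 0.47. Among these 8, 4 had an unadjusted p under 0.05, beside 68.2% of all genes tested. Of 11 genes of fusion, fission and cristae 2 were higher and 2 lower, from Mfn2 at -0.13 to Minos1 at 0.22.

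Markers of other cells moved with the groups, beside 29.3% of all genes called higher and 27.8% lower. In summed normalized counts, 12 endothelial markers went from between 575411 and 581557 in sham to between 477355 and 479592 after PNX. Adipocyte markers, 6 of 8 tested called higher and 0 lower, went from 1158 and 1172 to 3069 and 3190, mostly on Fabp4, with Lep and Elovl3 at 0 in both sham libraries. All 7 macrophage markers, all 4 mesothelial markers and all 5 proliferation markers were called higher, the last from between 2604 and 2616 to between 21217 and 21301. Fibroblast markers gave 4 higher and 1 lower of 5, pan-leukocyte markers 3 higher and 1 lower of 5, and all 7 alveolar epithelial and all 5 ciliated cell markers were called lower. The part of these cells in the levels of the respiratory chain genes was not tested.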

How the data were processed

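RNA of lung ECs was measured in 2 sham and 2 PNX libraries, each from 2 pooled mice. According to the methods and labels, a stranded mRNA kit was used, and paired reads were aligned to mm10. The submitters' processing notes name STAR, and the counting program is not given in the sources used here. For each library the authors deposited whole-number counts on 33068 RefSeq transcripts without normalization, with FPKM and TPM values beside them. The deposited FPKM equals the count divided by transcript length and by the total over all transcripts (65763553 to 81282871). FPKM served to compare levels between genes, and the deposited TPM was not used.

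Counts of 1 transcript per symbol were tested in R 4.3.3 with edgeR 4.0.16 (filterByExpr, TMM factors from 0.998 to 1.003, quasi-likelihood F test without covariates, Benjamini-Hochberg adjustment over 16208 genes). A called gene has an adjusted p under 0.01. The standard error is the log2 fold change divided by the square root of F. In simulated data the same steps called 63 of 100 genes with a log2 change of 0.2 in size and 100 of 100 with a change of 2. Of 16008 genes with no change, 1 was called. A change of about 0.2 can thus be missed. P-values measure the spread between pooled libraries, which was little above counting error, and not the spread between mice. The genes, lists and rules for naming genes were chosen with earlier results of these data known. The genes named were the highest, the lowest and the most abundant of each class, the isoform pairs, the regulators, and the extremes of each other list; other genes named were chosen after their values were seen.

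Alternatives were the size factors of DESeq2 1.42.0, the library size alone, scaling to 12 endothelial markers, no filter, a mean of at least 50 counts, DESeq2's Wald test, a replicate block, counts summed over transcripts and each library left out. Copies were sought among annotated transcripts with blastn 2.17.0, and positions and promoter sequences are RefSeq's for GRCm38.p6. The values of 1 gene are not reported here.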

Additional observations from a re-analysis of the deposited data

How the results depend on the processing

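The number of family genes called higher (64) stayed between 50 and 84 under 12 alternatives, and that past the study's thresholds stayed at 0. Genes called lower (3) were 0 under endothelial marker scaling, 1 in DESeq2's Wald test and 1 to 3 with a library left out, the 1 without sham replicate 1. The median log2 fold change was 0.47 under endothelial marker scaling and 0.18 to 0.20 with a library left out. Over all genes, endothelial marker scaling gave 9857 higher and 1298 lower, and leaving out a library gave 4142 to 4317 higher and 3852 to 4124 lower, against 4745 and 4513. The share of counts on the family, with counts summed over transcripts, was 0.389% and 0.390% in sham and 0.444% and 0.437% after PNX. The total then holds the counts on all transcripts of every symbol. Whether reads were counted for several transcripts was not tested.

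Ppargc1a kept its call at an adjusted p under 0.01 under every alternative run, but not the fold threshold at -0.88 (endothelial marker scaling) and -0.97 (without PNX replicate 1), within a range of -1.35 to -0.97 with a library left out. Sdha at 0.15, Ndufaf4 at 0.061 and Ndufa7 at 0.18 reversed under endothelial marker scaling, which shifts every gene by 0.28. With TMM factors from genes with transcripts over 700 bases, chosen after the data were seen, the median was 0.20; such factors move all genes alike and do not bear on length. Cox7a1 and Cox8b got no value when a mean of 50 counts was required.

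With the replicate number as a block, 65 family genes were higher and 3 lower, with a median of 0.19. Libraries with the same number deviated from their group means with a correlation of 0.0229 and came from different mice, so they share only a number.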
